A study of Mus musculus with 2 samples.

Results

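The genes described here run the cell's death programme or carry signals from receptors of the tumour necrosis factor (TNF) family. Members were the probe sets that the platform annotation assigned to 1 gene whose symbol begins with Casp, Traf, Birc, Gadd45, Bcl2, Tnfrsf or Tnfsf, or is one of a short list of named genes such as Fas, Tradd, Bid, Mcl1, Apaf1 and Cideb. This rule found 81 of the 12488 probe sets of the array, for 59 of 8251 named genes. One of the 81 was a control probe set for Fas, which stayed out of the values per gene. The kinase Ripk1 and the pore former Bax were not analysed here.

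Total RNA of mouse liver, bought from a commercial supplier under 1 catalogue number, was hybridised to 2 single-colour oligonucleotide arrays, called replicates 1 and 2. The titles name liver and the source field names spleen; the titles were used here. No strain, age, sex or treatment was found in the labels, and nothing says that the RNA came from separate animals, so differences between the arrays may be technical. With 1 group there is no comparison between conditions and no p-value.

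Cells can be told to die from outside or from within. From outside, a ligand such as Fasl or Tnf clusters its receptor, the adaptors Fadd and Tradd gather at the receptor's tail, and the initiator caspase Casp8 is activated there; Traf proteins carry the same receptors' signals towards NF-kB and stress kinases. From within, proteins of the Bcl2 family decide whether mitochondria release cytochrome c, which joins Apaf1 and Casp9. Hepatocytes are known for their sensitivity to Fas, and there cleavage of Bid by Casp8 links both routes.

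Signals are given in array units on a linear scale, replicate 1 first. The background threshold was the 95th percentile of 102 measured genes that are typical of other organs (nervous tissue, testis, eye, skeletal and heart muscle). It was 632.6 on replicate 1 and 612.1 on replicate 2. Des, a muscle gene of this list, was also listed as a marker of stellate cells and fibroblasts, and gave 349.6 and 188.8. Each gene was read from its brightest probe set, and its percentile is its place among all named genes of the arrays. Probes differ in brightness, so a percentile places a signal within the array and does not rank transcripts. All 9 measured hepatocyte markers were above background on both arrays, with percentiles from 96.6 to 99.99, as were 7 of 11 Kupffer cell and macrophage markers, 1 of 12 T and NK cell markers and 0 of 8 B cell markers; no marker was listed at 0. The median signal of the arrays was 163.2 and 157.7.

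Most genes of the death programme gave weak signals in this RNA. The median percentile of the 59 genes was 40.2, where the middle of all named genes is the 50th percentile, and the median signals were 169.5 and 132.4 against 228.8 and 219.2 for all named genes. Above background on both arrays were 5 genes (8.47%), namely Cideb, Bcl2l1, Traf4, Gadd45g and Traf2, against 23.7% of all named genes. Counted as probe sets, 5 of the 80 regular sets passed, against 19.6% of all named sets. A further 6 genes were above it on 1 array, and 48 on neither. Only Cideb stood among the brightest 10% of genes. A gene below the threshold is called not above background, which is not absence.

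These counts depend on the threshold. The 5 background genes brightest on these arrays were Tnp1, Pvalb, Tubb3, Acta1 and Clgn, and all but Acta1 came from sets with the suffix r, i or f, which marks sets whose probes fall short of the usual design rules. With background genes read from plain sets alone, an alternative chosen after seeing the data, the threshold was 332.6 and 363.6 and 13 of the 59 genes passed (22%), against 36.2% of all named genes. The added genes were Bak1, Bcl2, Bcl2l13, Casp9, Mcl1, Tnfrsf1a, Tnfrsf1b and Trafd1. With the 90th percentile, a threshold of 382.6 and 363.1, 11 passed (18.6%), against 34.9% of all named genes. With the 99th 1 passed, Cideb (1.69%), against 16.1%. On replicate 2 alone 10 genes passed (16.9%, against 25.5%) and on replicate 1 alone 6 (10.2%, against 24.9%). In each of these settings the share of cell death genes above background was lower than that of all named genes, by the percentages themselves and with no test.

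**Figure D1:**
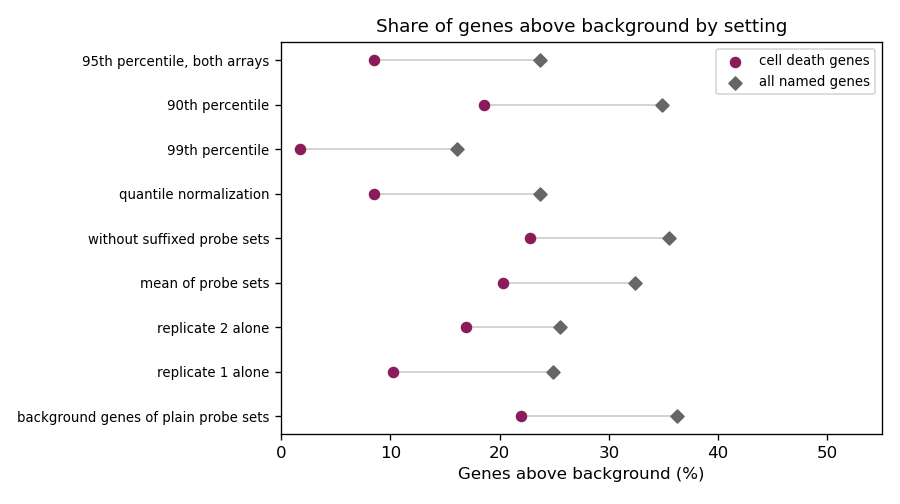
Percentage of genes above background (horizontal axis) among the cell death genes (circles) and among all named genes (diamonds) under the main setting and 8 alternatives. The circle lies left of the diamond in every setting shown, from 1.69% against 16.1% with the 99th percentile to 22.8% against 35.5% without suffixed probe sets.

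Among the classes of members, the ligands were the dimmest. All 7 measured ligand genes lay below the threshold on both arrays, where 23.7% of all named genes were above it on both. Their highest signal was 77.4, their median percentile 11.4 and their highest percentile 21.6. Tnf, the founding cytokine of the family and a product of activated macrophages, gave 39.7 and 21.1. Fasl, the killing ligand of cytotoxic lymphocytes, gave 33.8 and 21.6. Both were low on both arrays, far under the threshold. Some ligands of the family outside the members gave more. Lta gave 366.1 and 374.0 in the brighter of its 2 sets, and 32.2 and 55.8 in the other. Cd70 gave 305.1 and 153.5, and a set shared by Tnfsf12 and Tnfsfm13 gave 444 and 518.6. Eda (141.4 and 143.6 in its brightest set), Ltb (51.3 and 108.3) and Cd40lg (27.3 and 3.3) were lower. All of these lay below the threshold on both arrays.

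Tnfsf10, the death ligand known as TRAIL, gave 51.3 and 34.6. Tnfsf11, the osteoclast factor RANKL, gave 57.8 and 43.0, and the costimulatory ligands Tnfsf9 and Tnfsf8 gave 77.4 and 39.1, and 23.6 and 24.1. Tnfsf4, the OX40 ligand, was the dimmest gene of all 59, with 7.6 and 2.7. Except for Tnfsf8 the ligands were higher on replicate 1, at signals where the arrays differ widely, as given below. The T and NK cell markers summed to 2084 and 2281 over 12 genes, and 11 of them were below the threshold on both arrays. The brightest were Zap70, at 834.3 and 880.5 in a set of suffix s and above the threshold on both arrays, and Lat, at 583.8 and 409.9. Cd8b1 was the lowest, at 15.9 and 8.8, and Cd3e gave 56.0 and 51.5. In whole-tissue RNA, few cells of a type and little RNA per cell cannot be told apart, and the part of cell makeup in the ligand values was not tested.

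Of 12 receptor genes 0 were above background on both arrays, against 23.7% of all named genes. The receptors of Tnf itself lay at the threshold while the rest lay far below. Tnfrsf1a, the widely expressed death-domain receptor of Tnf, gave 628.7 and 743.3 in its brighter set. It passed on replicate 2 and missed by a few units on replicate 1. Its second set, of suffix r, gave 148.2 and 143.4, far below the threshold on both arrays. Tnfrsf1b, the other Tnf receptor, which lacks a death domain, gave 649.9 and 603.5 and passed on replicate 1. Their percentiles were 76.8 and 75.0. Both passed on both arrays with the plain-set threshold. Tnfrsf1b is abundant on myeloid cells, and the 11 measured macrophage markers, led by C1qc at 2541 and 2986 with Marco the lowest at 23.6 and 18.8, summed to 13172 and 13250; their part in the signal was not tested.

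Fas, the receptor of Fasl, was not above background in either of its probe sets. The gene's regular set, of suffix s, gave 29.0 and 96.7, which differ 3.33-fold. The array's control probe set for Fas gave 177.8 and 200.4. Neither set reached the threshold on either array.

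The other 9 receptors ranged from percentile 1.02 to 45.8. Tnfrsf11a, the RANK receptor, gave 202.5 and 169.0, and Tnfrsf11b, the soluble RANKL decoy osteoprotegerin, 112.9 and 124.6. Tnfrsf21, death receptor DR6, gave 134.5 and 62.3. The lymphocyte receptors Tnfrsf9 (91.4 and 132.4), Tnfrsf8 (100.8 and 38.3), Tnfrsf17 (59.0 and 43.7), Tnfrsf18 (48.0 and 54.5) and Tnfrsf4 (30.9 and 34.3) were all dim on both arrays. Tnfrsf19 was the lowest receptor, with 4.1 and 13.2.

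**Figure D2:**
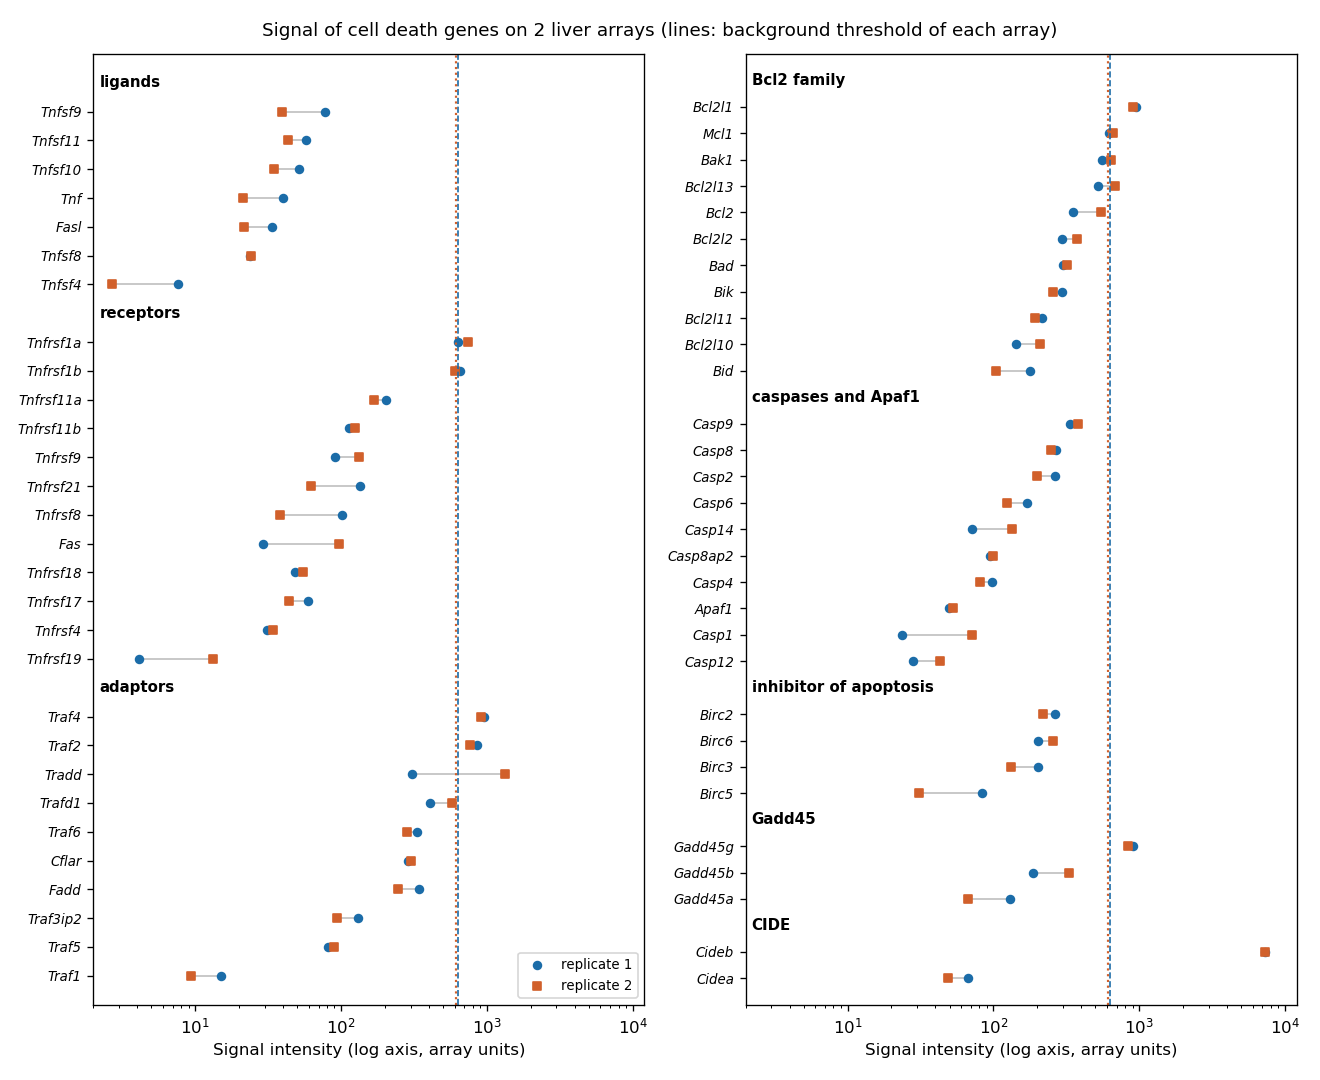
Signal of each of the 59 genes on replicate 1 (circles) and replicate 2 (squares) by role, on a log axis, with the background threshold of each array as a dashed line (replicate 1) and a dotted line (replicate 2). Cideb stands alone at 7239 and 7272, and all 7 ligands lie at or below 77.4.

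Adaptors lay higher than ligands and receptors by percentile, with a median of 57.8. Of 10 adaptor genes 2 were above background on both arrays (20%), against 23.7% of all named genes. Traf4, a Traf protein with roles at cell junctions, gave 948.2 and 905.8, with both values above the threshold. Its second probe set gave 660.4 and 554.4 and passed on replicate 1 alone. Traf2, which joins Tnf receptor complexes to kinase signalling, gave 855.8 and 764.1.

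Tradd, the adaptor of the Tnf receptor's death domain, was the one member that differed over 2-fold between the arrays in the brighter 50% of probe sets, with 304.8 and 1339, below the threshold on replicate 1 and above it on replicate 2. It was read from 1 probe set, of suffix r. Sets of that suffix differed over 2-fold in 6.69% of 284 cases, against 1.78% of 4998 plain sets. Without suffixed probe sets Tradd was not measured. The adaptor of Fas, Fadd, gave 343.0 and 244.0, and Cflar, the catalytically inactive Casp8 homologue FLIP that blocks Casp8 activation, gave 285.7 and 300.3; both were below the threshold on both arrays.

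The remaining Traf genes spread over the whole lower range. Trafd1, a zinc-finger protein of innate signalling, gave 409.9 and 576.7. Traf6, used by Toll-like and interleukin receptors, gave 330.5 and 283.9 in its brightest set, and 96.0 and 53.9, and 7.7 and 10.6, in the others. Traf3ip2 gave 129.8 and 93.7, and Traf5 81.7 and 88.9. Traf1, which is induced in activated lymphocytes, was the lowest adaptor, with 14.9 and 9.4.

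The Bcl2 family had the highest median percentile of the classes with more than 3 genes, 60.4, and the lowest of its 11 genes stood at percentile 38.6. Sets shared by several Bcl2a1 genes were not among these and gave 15.7 and 9.2, 95.6 and 67.9, and 268.9 and 235.7. The last of these sets was also assigned to Mthfs. Among the survival proteins, Bcl2l1, which encodes Bcl-xL, gave 948.0 and 906.7 and was the only one above background on both arrays. Its second probe set gave 13.3 and 24.0, and with the mean of its sets Bcl2l1 was not above background. Mcl1, a short-lived protein that hepatocytes need, gave 620.9 and 663.7, on either side of the threshold. Bcl2 itself gave 352.1 and 546.3 in its brightest set and at most 63.9 in its other 2 sets, and Bcl2l2 gave 293.3 and 372.0. Bcl2l10, a family member best known from oocytes, gave 143.9 and 210.0.

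Of the pore-forming side, Bak1 gave 559.6 and 644.9 and passed on replicate 2. Bcl2l13, a mitochondrial outer-membrane protein of the family, gave 518.4 and 685.7 and passed on the same array. The proteins that carry only the BH3 segment and act as triggers were all below the threshold on both arrays. Bad gave 298.8 and 317.4 in a set of suffix i and 264.0 and 267.2 in its plain set, so its 2 sets gave nearly the same reading. Bik gave 296.5 and 256.3. Bcl2l11, known as Bim, gave 215.4 and 192.6 in the brightest of 3 sets. Bid, the link from Casp8 to mitochondria, was the lowest of the 11 genes of the family, with 177.0 and 104.5.

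Caspases were not above background. Of the 9 genes named after caspases and Apaf1, 0 passed on either array, with a median percentile of 31.7. Of all named genes, 23.7% passed on both arrays. The initiators had the highest percentiles of the class: Casp9, which Apaf1 activates, gave 333.6 and 381.5, Casp8 gave 268.8 and 249.1, and Casp2 gave 265.8 and 199.2. The 4 sets of Casp9 ranged from 121.7 to 381.5, and the gene passed on both arrays with the plain-set threshold. Casp6, an executioner, gave 169.5 and 124.9. Apaf1, the scaffold of the apoptosome, gave 49.3 and 52.7, a low signal with little difference between the arrays.

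The inflammatory caspases were dim as well. Casp4 gave 97.3 and 80.7, Casp1, which matures interleukin-1 beta, 23.8 and 71.1, and Casp12 27.9 and 43.2. Casp14, a protein of skin cornification, gave 70.8 and 133.5. Casp8ap2, a nuclear protein that binds Casp8 and serves histone gene expression, gave 94.3 and 99.6, and its second set 4.0 and 17.7.

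The 4 inhibitor of apoptosis genes were below the threshold on both arrays, where 23.7% of all named genes were above it on both. Birc2, a ubiquitin ligase of Tnf receptor complexes, gave 265.2 and 219.2, and its close relative Birc3 201.4 and 131.8. Birc6, a very large ubiquitin-conjugating protein, gave 202.5 and 254.6. Birc5, survivin, which acts in chromosome segregation and is made by dividing cells, gave 83.8 and 30.9 and was the lowest. Beside it, 0 of 11 markers of dividing cells were above background on either array, and they summed to 1282 and 1440.

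The Gadd45 genes, induced by stress and growth arrest, differed in where they stood. Gadd45g gave 913.7 and 836.6 and was above background on both arrays, at percentile 81.6. Gadd45b gave 187.7 and 331.7 in one set and 275.6 and 218.5 in the other, so its sets move in opposite directions between the arrays. Gadd45a gave 129.1 and 67.1. The fold between the arrays was 1.09 for Gadd45g, 1.77 for the first set of Gadd45b, 1.26 for its second set and 1.92 for Gadd45a.

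Cideb was the brightest of the 59 genes. This member of the CIDE family, named for likeness to a DNA fragmentation factor, sits on lipid droplets and the endoplasmic reticulum and in hepatocytes helps load lipid onto very low density lipoprotein. Its signal was 7239 and 7272, a mean of 7255 ± 23.3 (SD, n = 2 arrays), at percentile 97.6. The arrays differed by a factor of 1.00. Cidea, the brown fat member, gave 67.4 and 49.0 and was not above background, and Cidec, the fat storage member, which the rule did not take in, gave 62.7 and 30.3.

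RefSeq promoters of build GRCm38.p6 were matched for 51 of the 59 genes, and 43 of these had 1 listed start; for the others the start with the most CpG dinucleotides was taken. The arrays do not measure promoters, so what follows describes the genes. In the 250 bases before the start, the median number of CpG was 12 in the 51 genes and 15 in 6572 named genes of the array. It was 7 in 5 ligand genes (range 4 to 10), 9 in 11 receptor genes, 16 in 8 adaptor genes and 20 in 9 genes of the Bcl2 family (range 8 to 36). In the other classes it was 9.5 in 10 genes of caspases and Apaf1, 18.5 in 4 inhibitor of apoptosis genes and 16 in 3 Gadd45 genes. Cideb, the brightest member, had 6. The median was 16 in the 5 members above background on both arrays and 11 in the other 46. Over all named genes it was 16 in those above background and 15 in the others. The 150 bases before the start of 3 genes are shown, on the gene's own strand with CpG in capitals, because they set the brightest member beside a dim one with a CpG-rich promoter and a dim ligand. The 3 were chosen after their values were seen and do not speak for the other genes. They lie at chr14:55758425-55758574 (Cideb), chr10:91082744-91082893 (Apaf1) and chr17:35202008-35202157 (Tnf), all on the minus strand.
Cideb: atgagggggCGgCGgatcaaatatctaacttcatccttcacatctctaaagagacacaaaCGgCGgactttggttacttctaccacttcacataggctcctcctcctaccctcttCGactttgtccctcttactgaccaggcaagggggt
Apaf1: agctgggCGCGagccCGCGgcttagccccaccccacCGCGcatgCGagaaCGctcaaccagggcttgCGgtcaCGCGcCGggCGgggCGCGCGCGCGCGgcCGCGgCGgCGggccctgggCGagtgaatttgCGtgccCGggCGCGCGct
Tnf: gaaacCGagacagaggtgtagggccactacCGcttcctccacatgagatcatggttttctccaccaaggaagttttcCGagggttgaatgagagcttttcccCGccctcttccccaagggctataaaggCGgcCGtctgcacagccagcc

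Cideb had 5 CpG in the printed stretch, Apaf1 29 and Tnf 6. The TATA box letters TATAAA, searched on both strands of the 250 bases, were found in 7 of the 51 genes (13.7%), against 12.5% of 27025 promoters of the table and 8.92% of named genes of the array, and stand near the end of the Tnf stretch. The GC box letters GGGCGG were found in 31 of 51 (60.8%), against 34.4% of all promoters of the table and 57.2% of named genes of the array. A match describes letters only. In the genome, 7 pairs of these genes are direct neighbours among protein-coding genes, such as Cflar and Casp8, Bcl2l13 and Bid, Birc2 and Birc3, and Casp1 and Casp4.

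Agreement between the arrays followed signal. In the brighter 50% of probe sets, 35 were of cell death genes and 1 of them, that of Tradd, differed over 2-fold, against 2.09% of 6211 sets. Over all probe sets, 12 of 80 sets of cell death genes did, against 18.2% of all sets. In the dimmer 50%, 11 of 45 sets of cell death genes did (24.4%), against 34.3% of 6211 sets. Examples are Casp1, Birc5, Tnfsf4 and Tnfrsf19, which differed 2.99-, 2.71-, 2.81- and 3.22-fold. Over the 29 cell death genes in the brighter 50%, the median log2 difference, replicate 2 minus replicate 1, was 0.01, and 15 of 29 were higher on replicate 2, against 2411 of 4818 genes. The median size of the log2 difference was 0.21 in these 29 and 0.17 in all 4818. No difference here has a replicate check.

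**Figure D3:**
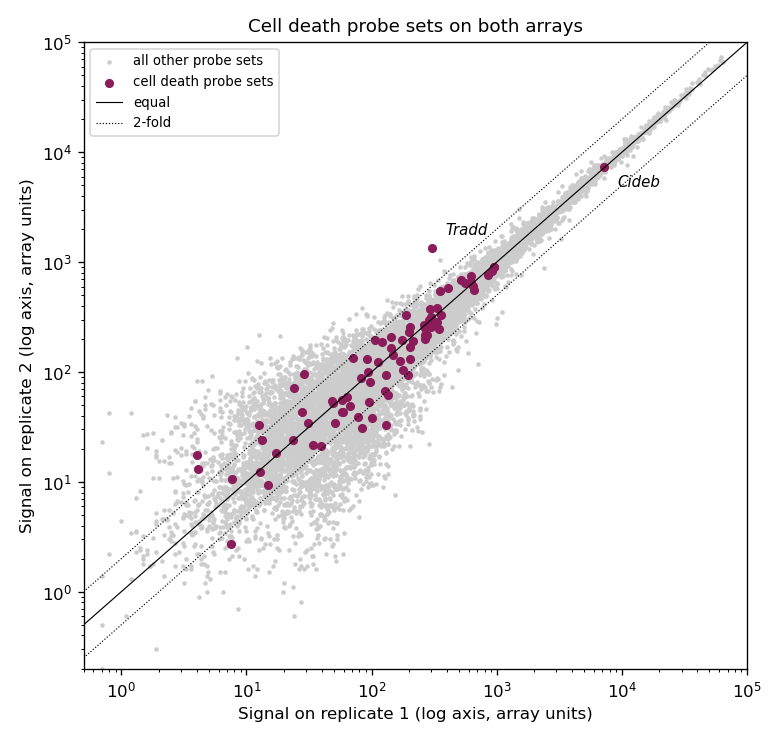
Signal on replicate 1 (horizontal) and replicate 2 (vertical) of the 80 regular probe sets of cell death genes (dark points) and of all other non-control probe sets (grey), on log axes, with lines of equality and of 2-fold difference. The dark points fan out towards low signal, Cideb lies on the line of equality, and Tradd, at 304.8 and 1339, lies beyond 2-fold.

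Several genes were read by more than 1 probe set. Of 16 such genes, 14 had no set above background on both arrays, 2 (Bcl2l1 and Traf4) had sets on both sides of that call, and 0 had all sets above it. Over all genes with several sets, 24.7% of 2073 had sets on both sides. Different probes of a gene need not be equally bright, and no fold between sets is given. The second set of Bcl2l1 was far below the threshold on both arrays. The sets of Bad gave similar readings, all below the threshold. The 5 genes above background included 3 with a single set (Cideb, Gadd45g and Traf2).

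**Figure D4:**
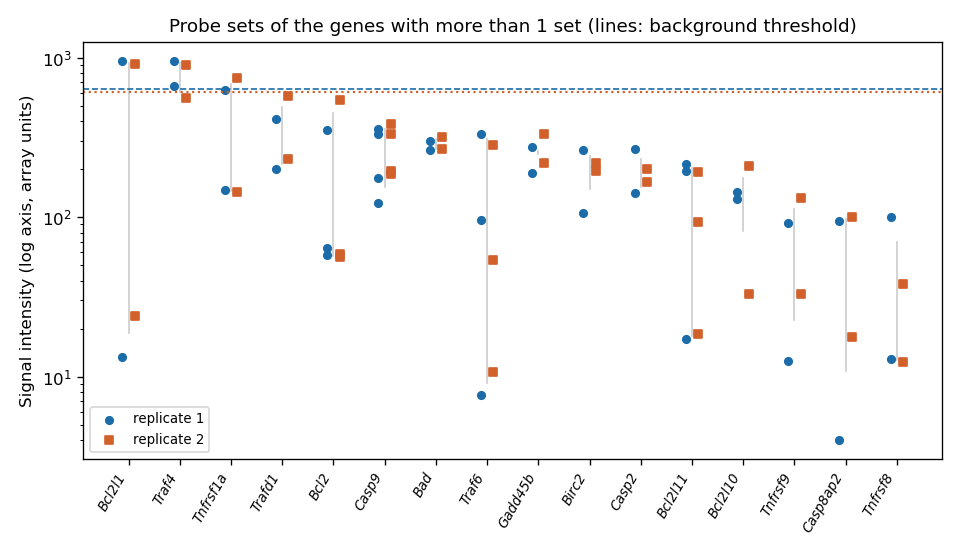
Signal of every probe set of the 16 genes with more than 1 regular set, on replicate 1 (circles) and replicate 2 (squares), on a log axis; grey bars span the sets' mean signals, and the lines are the thresholds of replicate 1 (dashed) and replicate 2 (dotted). One set of Bcl2l1 lies above both lines (948.0 and 906.7) and the other far below (13.3 and 24.0).

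Genes that work beside these were taken from a fixed list of other death and NF-kB pathway genes, of which 77 were measured. On both arrays 16 of the 77 were above background (20.8%), against 23.7% of all named genes, and their median percentile was 53.2. With the 90th percentile 28 of the 77 passed, against 34.9% of all named genes. With plain background genes 29 of the 77 passed, against 36.2%. In both of these settings the share of the 77 was slightly above that of all named genes. The 10 brightest were Dap, the lysosomal proteases Ctsb and Ctsd, the mitochondrial oxidoreductase Aifm1, the lymphotoxin receptor Ltbr, the NF-kB subunit Rela, the mitochondrial protease Htra2, Bcap31, the stress kinase Mapk14 and Pdcd4. Dap, a small protein named from interferon-induced death, gave 8945 and 9882, and Ctsb 9301 and 8657 in the brightest of its 4 sets, whose others gave at most 362.8. Ltbr, a receptor of the same family whose symbol the rule does not match, gave 2125 and 2060, above background on both arrays, unlike each of the 12 receptors described above.

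Rela gave 1902 and 2101 in its brighter set, and 6.6 and 14.8 in its other set, of suffix i. Nfkbia, the inhibitor that holds Rela in the cytoplasm, gave 1376 and 1305. Its second set gave 487.1 and 725.4 and passed on replicate 2 alone. Htra2 was read from a set of suffix r (2156 and 1815), while its plain set gave 194.6 and 172.7. Cycs, cytochrome c, gave 396.1 and 432.6, a signal below the threshold from the gene's 1 probe set. Xiap, the caspase inhibitor, gave 111.1 and 153.3. The lowest by percentile, which rests on the mean log2 signal, was the T cell ligand Cd40lg, with 27.3 and 3.3; by mean signal Dffb (14.3 and 14.7) and Tnfaip3 (17.2 and 12.5) were lower. Trp53 was not analysed here.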

How the data were processed

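The authors deposited 1 signal intensity per probe set and array, on a linear scale and with no value at or below 0. After 2% of sets were trimmed from either end, the mean was 500.5 on replicate 1 and on replicate 2. How the probes were summarised and scaled, with which software, and whether calls of presence were made, is not given in the sources used here, and such steps matter most at low signal. Scanner files were not used. With 2 arrays, precision is limited by their number, and no test was made.

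Control sets (66) and sets of several genes (396) or no gene (1237) stayed out of values per gene. Gene identifiers were looked up in RefSeq (GRCm38.p6): 10839 of 10855 were found, and 0 symbols changed. Array differences used the brighter 50% of non-control sets by mean log2 signal, minus their median difference. Members, lists and the naming rule (all members; the 10 brightest, the lowest and fixed pathway genes) were chosen with earlier results of these data known. The background list of an earlier analysis was not at hand, so the list written for this report set the threshold. The earlier list had given a lower threshold, which could not be recomputed here. It was near the 90th percentile one of this report (382.6 and 363.1), where 11 genes passed in place of 5. Alternatives were other thresholds, quantile normalization, probe set choices, each array alone and log2(value + 32). The steps, tested on simulated data, ran in Python 3.11.15 with pandas 2.3.3, numpy 2.4.6, matplotlib 3.10.9 and scipy 1.17.1.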

Additional observations from a re-analysis of the deposited data

How the results depend on the processing

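The count of cell death genes above background on both arrays, 5, became 11 with the 90th percentile, 1 with the 99th, 13 without suffixed probe sets, 12 with the mean of a gene's sets, 10 on replicate 2 alone and 6 on replicate 1 alone, and 13 with plain background genes, a setting added after seeing the data. In the order 90th, 99th, without suffixed sets, mean of sets, replicate 2 alone and plain background genes, the Bcl2 family gave 4, 0, 5, 4, 4 and 5 genes (main 1; 1 on replicate 1 alone). Receptors gave 2 with the 90th percentile, without suffixed sets, with the mean of sets and with plain background genes, and 1 on each array alone (main 0). Adaptors gave 0 with the 99th and 4 with the mean (main 2), Gadd45 genes 0 with the 99th (main 1), and caspases and Apaf1 1 without suffixed sets and with plain background genes (main 0). The other pathway genes gave 28 with the 90th, 25 without suffixed sets, 26 with the mean and 29 with plain background genes (main 16). With the 90th, the mean and plain background genes, their share of the 77 measured was slightly above that of all named genes. Member sets over 2-fold numbered 12 over all probe sets and 0 without suffixed ones, which drops Tradd (main 1). The median log2 difference was -0.038 over all probe sets, -0.0032 in the brightest 25% and -0.043 after quantile normalization (main 0.01). Of 97 values under alternatives, 65 stayed near the main value. Near meant a count within a factor of 1.5, a percentile within the SD between the arrays, or a log2 difference equal after rounding. That SD came from the median percentiles of each array alone, so it is no separate check of those medians. Member ligands and inhibitor of apoptosis genes kept a count of 0 in every setting run, and these counts are among the 65. The threshold rests on few genes. A run with another background list was not made, because the list of the earlier analysis was not at hand; that list had given a lower threshold, near the 90th percentile one here (382.6 and 363.1). No paired analysis was possible because the labels give 1 group.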
